A study of Mus musculus with 16 samples.

Results

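The proteasome genes were taken as all gene symbols of the count table that begin with Psm, then 1 letter from a to g, then a digit. The rule found 49 of 23337 symbols: 15 genes of the core particle, 3 of the immunoproteasome (Psmb8, Psmb9 and Psmb10), 25 of the regulatory particles and 6 others. Of the 49, 46 passed a filter on low counts and were tested, among 9213 genes in all. The others were Psma8, a testis form of an alpha subunit with 0 counts in all 16 libraries, Psmc3ip, which is no subunit and has a role in meiotic recombination (30 counts in all), and Psmg2, a chaperone of core assembly (43 counts in all).

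The proteasome degrades proteins that carry ubiquitin chains. A core of stacked rings, with alpha subunits outside and beta subunits inside, holds the proteolytic sites, and regulatory caps with ATPase subunits recognise, unfold and feed in the substrate. Psmb6, Psmb7 and Psmb5 carry the proteolytic sites of the constitutive core and are replaced by Psmb9, Psmb10 and Psmb8 in the immunoproteasome, which is known for making peptides for MHC class I and is abundant in blood leukocytes.

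RNA-Seq was carried out on blood neutrophils from C57/Bl6 mice 8 weeks of age, isolated with magnetic beads by negative selection. LTβRΔN mice carry Ltbr fl/fl and the Mrp8-Cre transgene, in which the S100a8 promoter drives Cre in neutrophils, and the control littermates carry Ltbr fl/fl without Cre. Controls comprised 3 libraries labelled unstimulated and 4 labelled stimulated, and LTβRΔN mice 4 and 5. Per the treatment protocol the cells had TNF (100 ng/ml), IL-6 (50 ng/ml) and GM-CSF (100 ng/ml) for 2 h, with or without LIGHT (500 ng/ml), whereas the design text speaks of culture with or without cytokines. Which libraries received LIGHT is not in the labels, and the groups are called stimulated and unstimulated here. Nothing states whether each library came from a separate mouse, so p-values measure the spread between libraries, which may be technical. A number in the column names is shared by an unstimulated and a stimulated library of a genotype for 7 numbers. Such libraries may share a source, and the main fit does not pair them.

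Totals ranged from 1094335 to 11932653 counts per library, and the shallowest were replicate 2 of unstimulated LTβRΔN (1094335) and replicates 3 (1506153) and 1 (1697583) of stimulated LTβRΔN neutrophils. Ltbr was 84.6 to 154 CPM (counts per 1000000 of the TMM-scaled library total) in control and 0.704 to 18.1 CPM in LTβRΔN libraries. All 8 neutrophil markers were detected (summed level 46709 to 77061 CPM), whereas the 6 B cell and 4 NK cell markers summed to at most 1.60 and 0.140 CPM and the 7 erythroid markers to at most 6.08 CPM. Other lists were detected in every library, with summed levels of 341 to 562 CPM for 6 monocyte, 38.3 to 114 CPM for 5 eosinophil and 4.52 to 16.4 CPM for 7 T cell markers, of which 1, 2 and 1 were at 0 everywhere. Their part in the results was not tested. Replicate 3 of stimulated controls held the most platelet (194 CPM) and immature neutrophil (764 CPM) marker counts, and the next highest libraries had 42.7 and 317 CPM. Replicate 1 of stimulated controls was the least like its own group (mean correlation of log2 CPM across genes 0.857, against 0.864 to 0.933 in the other libraries). Of the 46 tested proteasome genes it held the lowest value of all libraries for 6 (Psma2, Psma7, Psmb1, Psmc3, Psmc5 and Psmd5) and the highest for 4.

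Upstream sequence was at hand for 41 of the 49 genes (RefSeq, GRCm38.p6, 250 bases before the start). It is shown for Psma1, the 1 gene whose stimulated and unstimulated libraries did not overlap in either genotype, and for Psmd12, the 1 gene whose LTβRΔN and control libraries did not overlap under either label. Psma1 is given from chr7:114276119-114276366, minus strand, and Psmd12 from chr11:107479278-107479483, plus strand, each up to the first exon of GENCODE. Capitals mark TGANNNNGC read on the opposite strand, the short form of the antioxidant response element to which the regulators Nfe2l1 and Nfe2l2 are known to bind.
Psma1: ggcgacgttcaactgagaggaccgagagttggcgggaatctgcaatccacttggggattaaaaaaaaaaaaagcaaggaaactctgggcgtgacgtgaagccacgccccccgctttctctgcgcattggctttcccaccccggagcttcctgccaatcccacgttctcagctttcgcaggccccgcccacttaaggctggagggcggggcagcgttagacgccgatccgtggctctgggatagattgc
Psmd12: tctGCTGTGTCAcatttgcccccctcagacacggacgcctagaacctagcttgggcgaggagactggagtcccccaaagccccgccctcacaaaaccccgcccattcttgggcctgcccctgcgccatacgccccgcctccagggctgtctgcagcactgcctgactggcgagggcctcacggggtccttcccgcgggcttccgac
On both strands TGANNNNGC was found upstream of 17 of the 41 genes (41.5%), against 10448 of 27025 genes with a sequence (38.7%). Psmd12 held a further match nearer the start, outside the bases shown, and Psma1 held none. An interferon regulatory factor pattern (GAAA, any pair of bases, GAAA) was found in 3 of the 41 (Psmb3, Psmd4 and Psmd9; 7.32%, against 3.46% of all), and a NF-κB pattern (GGG, any pair of bases, TT, any base, CC) in 0 of the 41 (4.71% of all). A match may overlap one of another pattern, and such matches are letters in a window, not sites.

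Levels were compared between genes as CPM per kb of the principal transcript. Psma7, an alpha subunit, and Psmb3, a structural beta subunit, were highest, with 240 ± 30.7 and 240 ± 34.3 CPM per kb (SD, n = 16 libraries). The immunoproteasome subunit Psmb8 followed with 154 ± 22.6 CPM per kb, then the ubiquitin receptor Psmd4 with 121 ± 17.9 CPM per kb. Psma7 and Psmb3 could not be ordered, as Psma7 was higher in only 7 of 16 libraries, but Psmb3 lay above Psmb8 in 16 of 16 and Psmd4 above the next gene, Psmb9, in 16 of 16. Per kb of all annotated exons the levels were lower and the order changed: Psmb3 (79.9 CPM per kb), Psmb5 (75.2), Psmb8 (74.2) and Psma7 (71.6) then led, Psmb5 coming from place 11. Most other neighbours in the order by principal transcript changed places between libraries. The lowest was Psmb11, the beta subunit of thymic cortex, with 0.426 ± 0.266 CPM per kb and 172 counts over 16 libraries. Just above it were Psme4, an alternative activator of the core (1.90 ± 0.984 CPM per kb), and Psmg1, a chaperone of core assembly (2.13 ± 1.76 CPM per kb). The ATPases of the cap ran from 15.7 ± 4.5 (Psmc6) to 29.8 ± 5.77 (Psmc4) CPM per kb. Per kb of all annotated exons they ran from 6.85 (Psmc2) to 19.8 (Psmc4). Psmd14, the deubiquitinase of the cap, had 10.6 ± 4.46 CPM per kb. The spread over libraries tended to be wider at lower levels, with a coefficient of variation of 11.1% for Psmd8 and 91.3% for Psmg4.

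**Figure D1:**
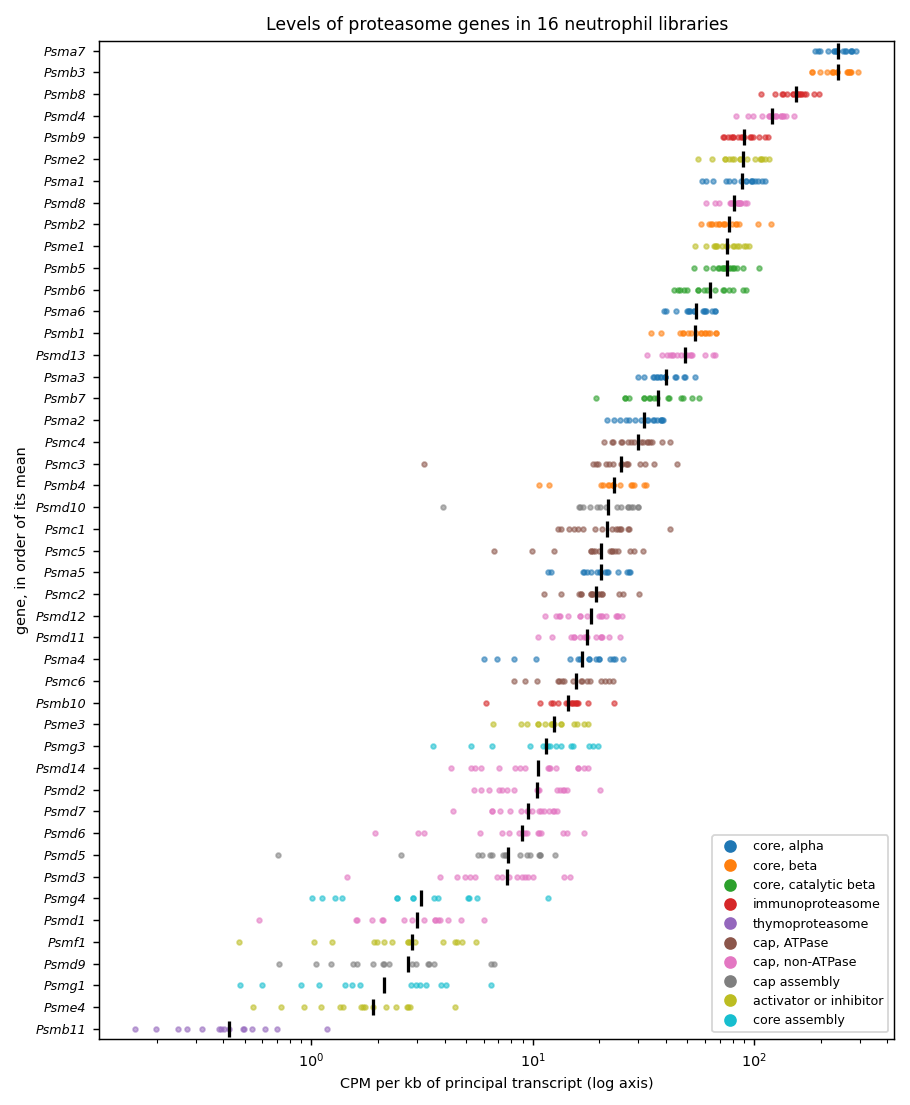
Level of each of the 46 tested proteasome genes in CPM per kb of the principal transcript (log axis), with 1 point per library (n = 16), a black bar at the mean and colours for the class of the gene. Libraries at 0 are not drawn; Psma7 and Psmb3 lie at about 240 CPM per kb and Psmb11 at 0.426 CPM per kb.

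The subunits of the immunoproteasome were compared with those they replace. Psmb8 was higher than Psmb5 in 16 of 16 libraries, with a median ratio of levels per kb of 2.00 (1.34 to 2.80). Psmb9 was higher than Psmb6 in 15 of 16, with a median ratio of 1.4 (0.943 to 2.24). Psmb10 was below Psmb7 in 16 of 16, with a median ratio of 0.403 (0.129 to 0.850). The sizes rest on the transcript length used. Per kb of all annotated exons the median ratios were 0.965 (0.648 to 1.35), 1.22 (0.817 to 1.94) and 0.913 (0.294 to 1.93). The median order of Psmb8 and Psmb5 thus turned, and for each pair the order differed between libraries, that of Psmb10 and Psmb7 included. Psmb9 shares 212 bases of exon with Tap1, a gene of peptide transport on the opposite strand, and Psmb7 shares 405 with Nek6. Psmb8 shares 498 with the antisense gene Gm20496, which is not in the count table. On the same strand Psmb5 shares 109 with Mir686, where strand would not separate the reads. Whether strand was used in counting is not given in the sources used here, so reads from the shared bases cannot be told apart.

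Psmb8 lies on chromosome 17 of GRCm38 from 34197721 to 34201454, Psmb9 on chromosome 17 from 34181987 to 34187764 and Psmb10 on chromosome 8 from 105935735 to 105938444. In control neutrophils Psmb8 had 264, 229 and 202 CPM unstimulated and 245, 217, 320 and 221 CPM stimulated. In LTβRΔN neutrophils Psmb8 had 258, 274, 254 and 305 CPM unstimulated and 266, 260, 243, 280 and 175 CPM stimulated. The groups overlapped in both genotypes, and the log2 fold change of Psmb8, stimulated over unstimulated, was 0.12 (95% interval -0.22 to 0.45) in control and -0.15 (-0.45 to 0.14) in LTβRΔN neutrophils.

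Psmb9 had 118 to 134 CPM in unstimulated and 98.9 to 152 CPM in stimulated controls, a log2 fold change of -0.06 (-0.41 to 0.29). In LTβRΔN neutrophils it had 142, 109, 131 and 156 CPM unstimulated and 129, 103, 97.9, 107 and 115 CPM stimulated, a log2 fold change of -0.29 (-0.61 to 0.02, edgeR adjusted p = 0.439). The groups again overlapped. Psmb10 had 17 to 19.7 and 14.2 to 19.4 CPM in unstimulated and stimulated controls and 19.9 to 30.4 and 8.07 to 20.9 CPM in LTβRΔN neutrophils. Unstimulated LTβRΔN libraries were all above unstimulated control libraries for Psmb10, by a log2 fold change of 0.35 (-0.38 to 1.09, edgeR adjusted p = 1). For all 3 subunits in both genotypes the interval of the stimulation difference excluded a rise of 2-fold, and only that of Psmb10 in LTβRΔN neutrophils (-1.05 to 0.26) reached a fall of 2-fold.

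None of the 3 constitutive catalytic subunits passed the test either. Log2 fold changes with stimulation were 0.06 for Psmb5, 0.26 for Psmb6 and -0.13 for Psmb7 in control neutrophils, and -0.18, 0.16 and 0.51 in LTβRΔN neutrophils. Psmb7 had 31.7, 30.4, 42.1 and 36.9 CPM in unstimulated and 47.3, 41.1, 47.9, 55.2 and 60.8 CPM in stimulated LTβRΔN neutrophils. Its groups overlapped by 1 library on each side (95% interval -0.04 to 1.06, edgeR adjusted p = 0.453).

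**Figure D2:**
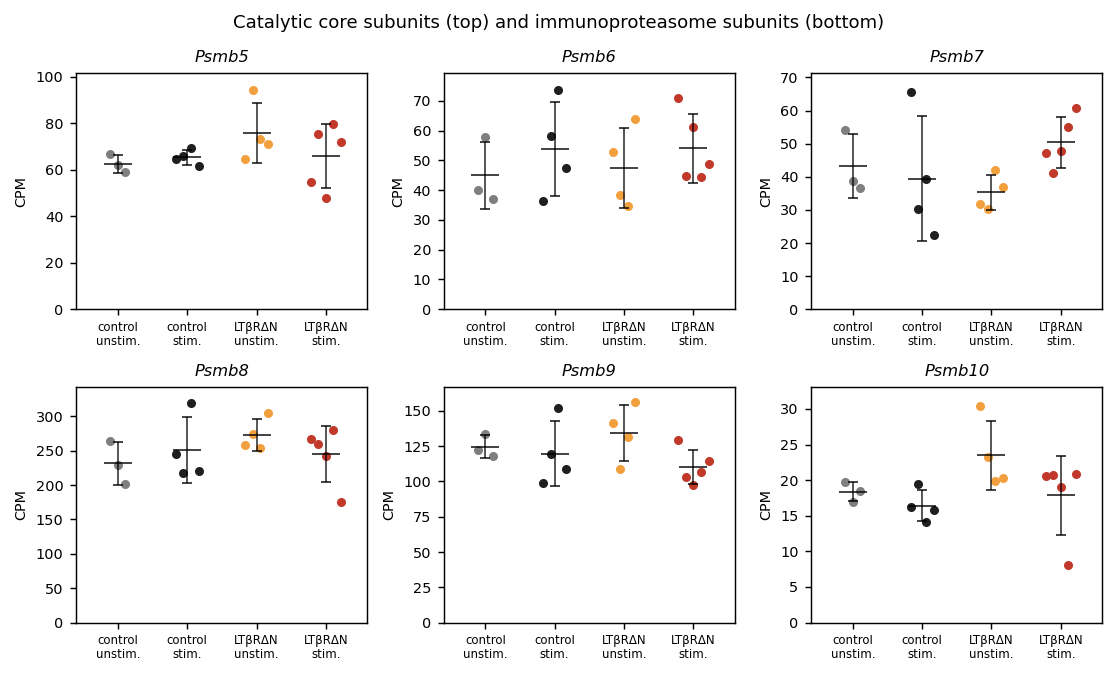
CPM of the 3 constitutive catalytic subunits (top) and the 3 immunoproteasome subunits (bottom) in each group, with 1 point per library and the mean ± SD (n = 3, 4, 4 and 5 from left to right). For Psmb8 the 16 libraries lie between 175 and 320 CPM in overlapping groups.

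Over the whole set, 0 of 46 tested proteasome genes differed between stimulated and unstimulated control neutrophils at an adjusted p under 0.05 (edgeR quasi-likelihood test), where 323 of all tested genes did (3.51%). At an unadjusted p under 0.05 there were 4 of 46, all lower, where 11.4% of all genes passed. In LTβRΔN neutrophils 0 of 46 passed the adjusted threshold (3.87% of all genes) and 2 of 46, both lower, the unadjusted one (12.9% of all). DESeq2 also called 0 in both genotypes, with 4 and 3 at an unadjusted p under 0.05. In control neutrophils 8 of 46 genes had groups that did not overlap (12.7% of all), 6 of them lower when stimulated (6.09% of all), namely Psma1, Psma2, Psma7, Psmc1, Psmd11 and Psme3. The higher ones were Psme4 and Psmb11. In LTβRΔN neutrophils there were 2 of 46 (7.28% of all), both lower (2.67% of all).

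Small differences lay more often below than above 0. In control neutrophils 31 of 46 log2 fold changes were below 0 (67.4%, against 51.8% of all tested genes), with a median of -0.11 against -0.02 for all genes. In LTβRΔN neutrophils 33 of 46 were below 0 (71.7%, against 52.2%), with a median of -0.18 against -0.03. Both comparisons had values below 0 for 23 of the 46 genes (50%, against 33.1% of all genes). This count follows largely from the shares below 0 in each genotype. Whether single genes agreed between genotypes beyond those shares was not tested. Scaling by library totals alone moved the median of all genes to -0.27 and -0.21 and that of the proteasome genes to -0.36 and -0.37, with 82.6% of the genes below 0 in each genotype. Relative to all genes the proteasome median was then -0.09 and -0.16, as against -0.09 and -0.15 with TMM factors. Scaling shifts all genes of a comparison by nearly the same amount, so this relative value could hardly change and tests nothing. With the library index as a covariate only 24 and 28 of the 46 genes were below 0 (52.2% and 60.9%). The proteasome medians were then -0.16 and -0.08, against 0.03 and 0.02 for all genes.

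The summed share of the 49 genes shows the same dependence on scaling. It was 0.285% to 0.322% of all counts in the 7 unstimulated and 0.225% to 0.265% in the 9 stimulated libraries, without overlap. TMM factors, however, were 1.03 to 1.14 in unstimulated and 0.916 to 0.951 in stimulated libraries. After TMM scaling the sum was 2651 to 2927 CPM in unstimulated and 2399 to 2896 CPM in stimulated libraries, which overlapped. The overlap rested on 1 stimulated library in each genotype. In controls this was replicate 3 (2896 CPM), the library with the most platelet and immature neutrophil marker counts, and the other 3 had 2427 to 2463 CPM against 2713 to 2832 CPM unstimulated. In LTβRΔN neutrophils it was replicate 1 (2756 CPM), and the other 4 had 2399 to 2530 CPM against 2651 to 2927 CPM unstimulated. Replicate 1 was shallow (1697583 counts), as was replicate 3 (1506153 counts), which had 2530 CPM. The overlapping libraries were singled out after their sums were seen. Whether depth or marker counts bear on the sums was not tested. In bulk RNA, fewer cells of a type and less RNA per cell cannot be told apart. Library index cannot be told apart from treatment in LTβRΔN neutrophils, since all 4 unstimulated libraries carried S520 and all 5 stimulated ones S521, and among controls 1 unstimulated library shared S521 with the stimulated ones.

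**Figure D3:**
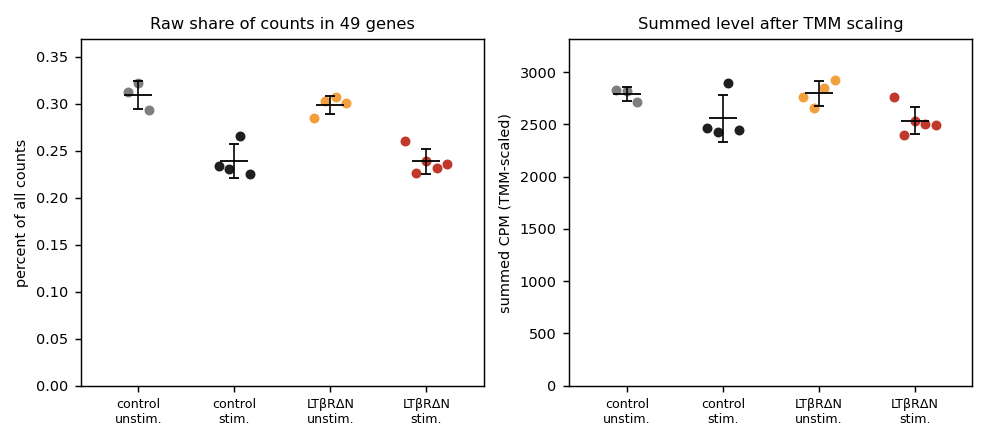
Share of all counts that fell on the 49 proteasome genes (left, percent) and their summed level after TMM scaling (right, CPM), 1 point per library with the mean ± SD of each group. The raw shares of stimulated (0.225% to 0.265%) and unstimulated (0.285% to 0.322%) libraries do not overlap, whereas the scaled sums do.

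Alpha subunits, which form the outer rings of the core, were below 0 for 6 of 7 genes in each genotype (median log2 fold change -0.30 in control and -0.19 in LTβRΔN neutrophils). Psma1 (chromosome 7, 114264606 to 114276118) had 121, 134 and 131 CPM in unstimulated and 105, 117, 116 and 78.2 CPM in stimulated controls. In LTβRΔN neutrophils it had 124, 110, 110 and 118 CPM unstimulated and 89.6, 69.9, 97.9, 73.1 and 92.5 CPM stimulated. Every stimulated library was below every unstimulated library of its genotype, as for 1 of the 46 genes and for 3.86% of all tested genes in either direction. The log2 fold change was -0.31 (standard error, SE, 0.172) in control and -0.46 (SE 0.156) in LTβRΔN neutrophils, which did not pass the test (edgeR adjusted p = 0.563 and 0.123).

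Psma2 had 106, 111 and 112 CPM in unstimulated and 62.9, 83.9, 72.5 and 79.0 CPM in stimulated controls. These groups did not overlap either, with a log2 fold change of -0.56 (SE 0.184, edgeR adjusted p = 0.122), the smallest adjusted p of the 46 genes there. In LTβRΔN neutrophils Psma2 overlapped, with 89.7 to 113 CPM unstimulated and 67.5 to 111 CPM stimulated and a log2 fold change of -0.14 (-0.49 to 0.20). Psma7 was 249 to 264 CPM in unstimulated and 173 to 216 CPM in stimulated controls (log2 fold change -0.36, edgeR adjusted p = 0.219). For Psma2 and Psma7 the lowest stimulated control was replicate 1, the library least like its group. Psma3 was at 0.00 in controls (-0.36 to 0.37), and Psma6 was the only alpha subunit above 0 in LTβRΔN neutrophils (0.20, -0.18 to 0.59). The 4 structural beta subunits ranged from -0.13 (Psmb4) to 0.35 (Psmb2) in control and from -0.52 (Psmb4) to -0.14 (Psmb2) in LTβRΔN neutrophils.

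The ATPases, which form the motor ring of the cap, were below 0 for 5 of 6 genes in each genotype (medians -0.39 and -0.24). Psmc5 had 29.9, 37.6 and 31.8 CPM in unstimulated and 8.78, 16.4, 31.0 and 13.1 CPM in stimulated controls. Of the 4 stimulated libraries 3 lay below every unstimulated library and replicate 3, at 31.0 CPM, lay among them. The log2 fold change was -0.93 (SE 0.349, edgeR adjusted p = 0.219). Psmc5 passed the test without replicate 3 (-1.38) or with scaling by library totals only (-1.19). With the numbers in the column names as a replicate block it also passed (-1.41). Psmc3 was 32.4 to 73.3 CPM in unstimulated and 5.27, 37.7, 35.0 and 43.4 CPM in stimulated controls (log2 fold change -0.80, edgeR adjusted p = 0.505), its low value being that of replicate 1. In LTβRΔN neutrophils Psmc5 had 24.0 to 41.4 CPM unstimulated and 24.0 to 36.4 CPM stimulated, a log2 fold change of -0.08 (-0.74 to 0.57). In LTβRΔN neutrophils the ATPase with the lowest fold change was Psmc6, with 29.4 to 40.5 CPM unstimulated and 18.4 to 33.8 CPM stimulated (log2 fold change -0.54, standard error 0.252, edgeR adjusted p = 0.354).

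Of the 11 non-ATPase subunits of the cap, 8 were below 0 in each genotype (medians -0.09 and -0.22). The values ran from -0.44 (Psmd6) to 0.68 (Psmd1) in control neutrophils and from -0.85 (Psmd1) to 0.40 (Psmd2) in LTβRΔN neutrophils, and none reached an unadjusted p under 0.05. Groups did not overlap for Psmd11 in controls (log2 fold change -0.18) and for Psmd7, the partner of the deubiquitinase, in LTβRΔN neutrophils (-0.57, -1.30 to 0.16), both lower when stimulated. Psmd1, a scaffold subunit of the cap base, had few counts and wide intervals (-0.51 to 1.88 and -1.91 to 0.22). The chaperones of cap assembly, Psmd5, Psmd9 and Psmd10, lay between -0.59 and 0.45 over both genotypes. Psmd5 was 3.11 CPM in replicate 1 of stimulated controls and 28.7 to 47.5 CPM in the other 3.

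Activators and the inhibitor of the core did not move together. Psme1 and Psme2, which form the interferon-inducible activator, had log2 fold changes of -0.08 and 0.13 in control and 0.05 and 0.19 in LTβRΔN neutrophils. Psme3, the nuclear activator, had 35.8, 42.0 and 45.2 CPM in unstimulated and 25, 17.5, 23.7 and 32.4 CPM in stimulated controls. The groups did not overlap, with a log2 fold change of -0.73 (SE 0.257, edgeR adjusted p = 0.171), and in LTβRΔN neutrophils it was -0.36 (-0.84 to 0.12). Psme4 was higher in all 4 stimulated controls (11.1 to 18.1 CPM) than in the unstimulated ones (6.03 to 10.9 CPM), by 0.81 on the log2 scale (-0.27 to 1.89, edgeR adjusted p = 0.661). In LTβRΔN neutrophils its log2 fold change was 0.96 (-0.02 to 1.94, edgeR adjusted p = 0.403), with overlapping groups. The inhibitor Psmf1 was at -0.01 and -0.02 with intervals beyond 2-fold on either side. The chaperones of core assembly, Psmg1, Psmg3 and Psmg4, had too few counts for narrow intervals, and their estimates ranged from -0.82 to 1.25.

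**Figure D4:**
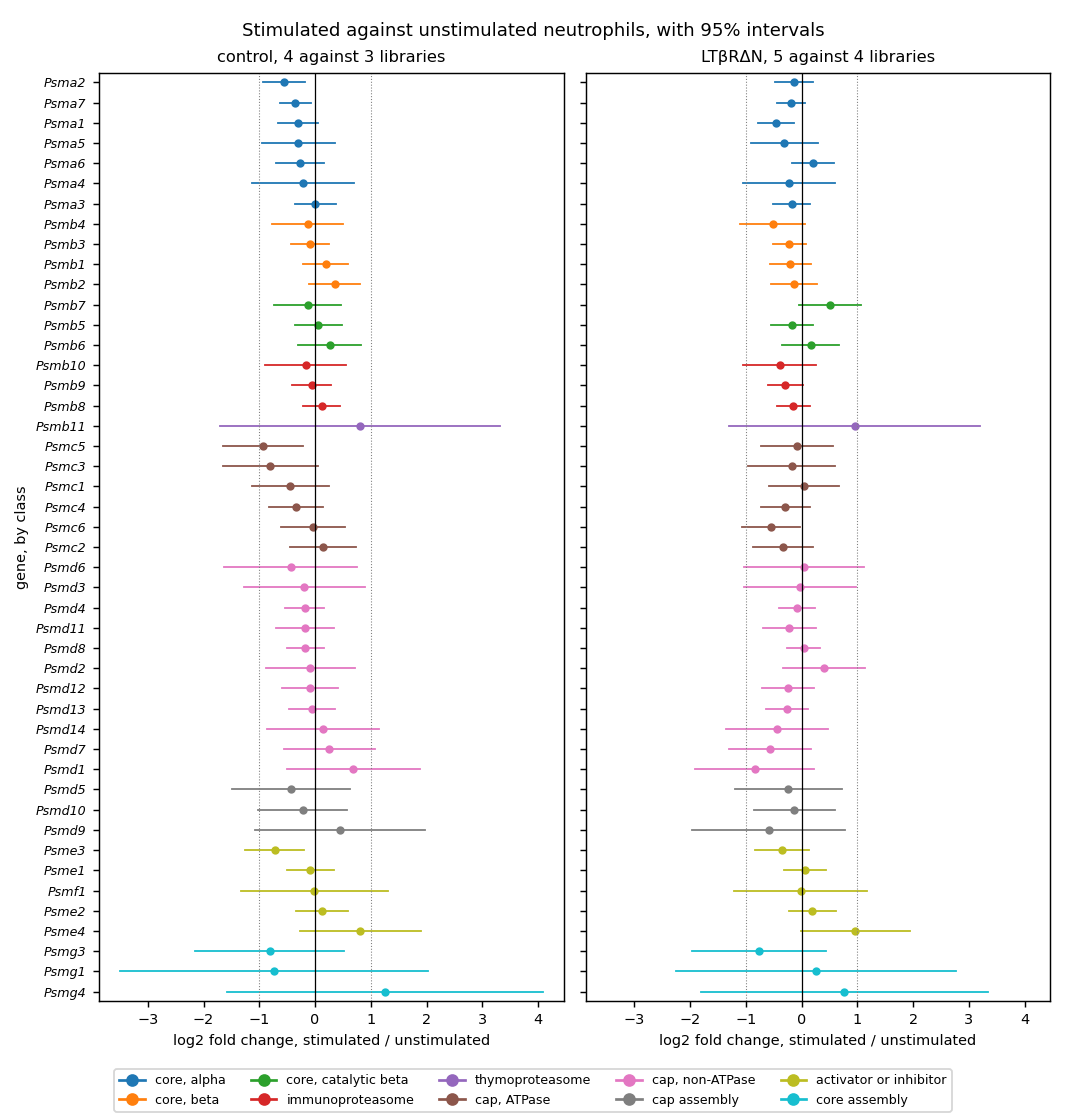
Log2 fold change of stimulated over unstimulated neutrophils (point) with its 95% interval (line) for the 46 tested genes, grouped by class, in control (left) and LTβRΔN neutrophils (right). Dotted lines mark a 2-fold change; 31 points of 46 lie below 0 in control and 33 in LTβRΔN neutrophils.

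Within the intervals, a 2-fold change in either direction was excluded for 27 of the 46 genes in control and for 27 in LTβRΔN neutrophils. Over all 9213 tested genes it was excluded for 3022 and 3352. Among the proteasome genes these were 13 and 11 of 14 core genes and 11 and 14 of 25 regulatory genes. Whether the level of a gene bears on this was not tested.

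A few other genes of the pathway passed the test. Of 44 genes for ubiquitin, cofactors, regulators and class I presentation, 2 rose and 1 fell in each genotype, the same 3 genes, where 3.51% (control) and 3.87% (LTβRΔN) of all tested genes were called in either direction. Irf1, a transcription factor known to drive immunoproteasome genes, rose from 460 to 488 CPM in unstimulated to 1610 to 1684 CPM in stimulated controls (log2 fold change 1.8, edgeR adjusted p = 6e-11). In LTβRΔN neutrophils it rose by 1.54 (edgeR adjusted p = 6.6e-11). Nfe2l2, a regulator of antioxidant genes, rose by 0.54 and 0.67 (edgeR adjusted p = 0.00495 and 7.87e-05). Zfand2a, a stress-inducible partner of the proteasome cap, fell by 0.68 in control and by 0.71 in LTβRΔN neutrophils (edgeR adjusted p = 0.0172 and 0.00397). With the library index as a covariate Nfe2l2 (0.44 in control and 0.51 in LTβRΔN neutrophils) and Zfand2a in LTβRΔN neutrophils (-1.16) did not pass the test, although the estimate of Zfand2a was larger in size. Zfand2a in LTβRΔN neutrophils was -0.58 and did not pass without the 4 libraries that were shallow or least like their group. In controls Nfe2l2 did not pass with scaling by library totals only (0.30) or without unstimulated replicate 2 (0.40), nor did Zfand2a without 1 of 2 libraries, where it was -0.51 without unstimulated replicate 3 and -0.62 without stimulated replicate 2. Of the 11 class I presentation genes, Tap1 and Tap2 among them, 0 passed the test in either genotype, a number too small to be set apart from the 3.51% and 3.87% of all genes.

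The genotypes were compared under each label. Between LTβRΔN and control neutrophils 0 of 46 genes passed the adjusted threshold when stimulated, where 2 of all tested genes did (0.0217%), and 0 of 46 when unstimulated (0.0217% of all). At an unadjusted p under 0.05 there were 4 of 46 (6.33% of all) and 2 of 46 (2.76% of all). Groups did not overlap for 1 of 46 genes when stimulated (1.31% of all) and for 4 of 46 when unstimulated (5.71% of all), of which Psmb1, Psmb10 and Psmd1 were higher and Psmd12 lower in LTβRΔN neutrophils. The median log2 fold change of the 46 genes, LTβRΔN over control, was 0.03 when stimulated and -0.05 when unstimulated (-0.01 for all genes in both).

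Psmd12, a subunit of the lid of the cap (chromosome 11, 107479484 to 107504362), was the 1 gene named under both labels. When unstimulated it had 45.5, 40.8 and 48.1 CPM in control and 31.1, 31.2, 38.0 and 25.1 CPM in LTβRΔN libraries. When stimulated it had 45.1, 46.0, 39.3 and 38.5 CPM in control and 33.6, 27.5, 25.3, 24.2 and 21.7 CPM in LTβRΔN libraries. All 9 LTβRΔN libraries lay below all 7 control libraries. The log2 fold change was -0.52 (SE 0.245) when unstimulated and -0.68 (SE 0.22) when stimulated, and neither passed the test (edgeR adjusted p = 1 and 0.655). The comparisons share no library, but every unstimulated library shares the number in its column name with a stimulated one of its genotype. The comparisons may therefore share sources and are not shown to be independent. Over all alternatives the values stayed between -0.63 and -0.42 and between -0.77 and -0.61. Groups failed to overlap in the same direction under both labels for 6 of 9213 genes (0.0651%), of which Psmd12 was the only proteasome gene. The other 5, listed after their values were seen, were Ltbr itself, Ap1s1, Coro2a, Pop7 and 2700050L05Rik.

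Among stimulated libraries Psmc6 had a log2 fold change, LTβRΔN over control, of -0.73 (SE 0.249, edgeR adjusted p = 0.655), with 18.4 to 33.8 against 31.1 to 49.1 CPM. Psmc5 was at 0.71 (SE 0.319) and Psma6 at 0.42 (SE 0.185), both with an edgeR adjusted p above 0.7. These values rest on the same stimulated control libraries as the comparisons with treatment. When unstimulated, Psmb1, a structural beta subunit, had 66.5, 88.0 and 84.0 CPM in control and 109, 102, 111 and 119 CPM in LTβRΔN libraries. The groups did not overlap, with a log2 fold change of 0.47 (SE 0.2, edgeR adjusted p = 1). In stimulated libraries the groups overlapped (60.1 to 106 CPM in control and 80.9 to 118 CPM in LTβRΔN neutrophils, log2 fold change 0.08).

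By class, the extremes of the genotype difference were as follows. Among stimulated libraries alpha subunits ranged from -0.30 (Psma1) to 0.42 (Psma6) and structural beta subunits from -0.50 (Psmb4) to 0.08 (Psmb1). Catalytic subunits ranged from 0.00 (Psmb6) to 0.35 (Psmb7), immunoproteasome subunits from -0.12 (Psmb9) to 0.13 (Psmb10) and non-ATPase cap subunits from -0.68 (Psmd12) to 0.34 (Psmd6). The 5 activator and inhibitor genes were all above 0, from 0.04 (Psme4) to 0.29 (Psme3). ATPases ranged from -0.73 (Psmc6) to 0.71 (Psmc5). None of these classes had a gene past the adjusted threshold. Among unstimulated libraries the immunoproteasome subunits were all above 0, with 0.24 for Psmb8, 0.12 for Psmb9 and 0.35 for Psmb10. Alpha subunits there ranged from -0.15 (Psma1) to 0.19 (Psma4), ATPases from -0.25 (Psmc3) to 0.16 (Psmc2) and catalytic subunits from -0.29 (Psmb7) to 0.26 (Psmb5). The widest range was that of the chaperones of core assembly when stimulated, from -0.66 (Psmg4) to 1.82 (Psmg1), genes with few counts. When unstimulated these chaperones ran from -0.17 (Psmg4) to 0.82 (Psmg1), and Psmd1 in the cap, also with few counts, reached 0.89.

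**Figure D5:**
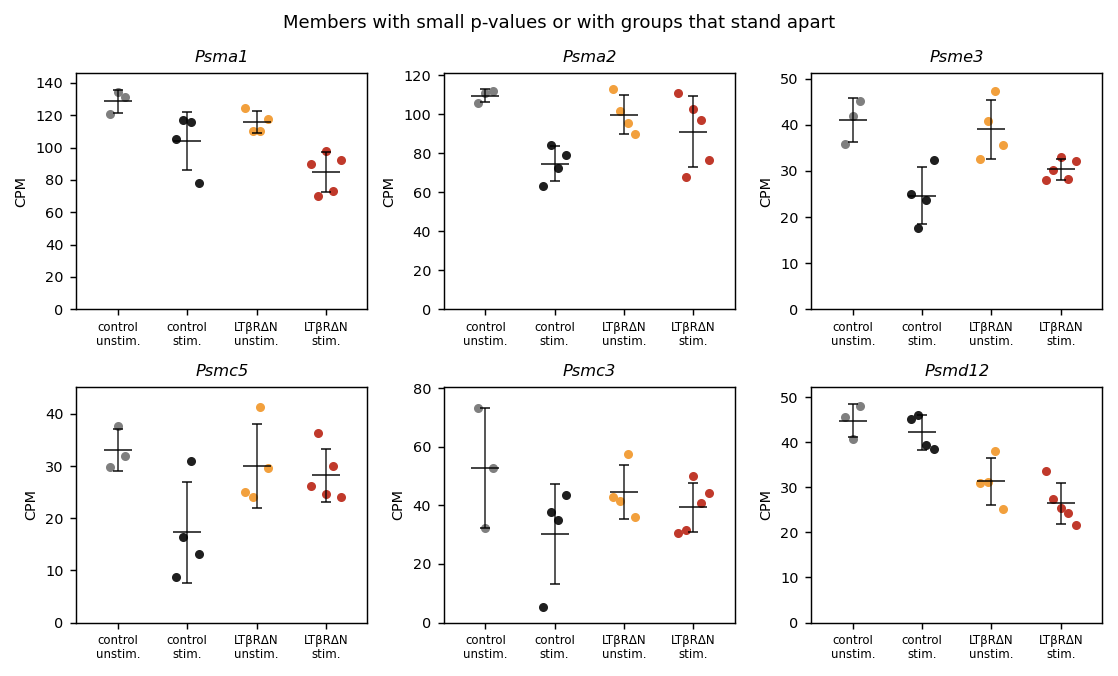
CPM of 6 proteasome genes with small p-values or a library that stands apart, chosen after their values were seen, with 1 point per library and the mean ± SD (n = 3, 4, 4 and 5 from left to right). All 9 LTβRΔN libraries are below all 7 control libraries for Psmd12, and for Psmc3 replicate 1 of stimulated controls is at 5.27 CPM.

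Whether stimulation differed between genotypes was tested by the interaction term. It was past the adjusted threshold for 0 of 46 genes (0% of all tested genes) and past an unadjusted p of 0.05 for 0 of 46 (3.66% of all). DESeq2 called 0, with 1 at an unadjusted p under 0.05. The smallest p-values were those of Psmd1 (log2 difference -1.53, -3.14 to 0.08), Psmc5 (0.84, -0.13 to 1.82) and Psma6 (0.47, -0.10 to 1.04), all with an edgeR adjusted p of 0.99989. For Psmb8, Psmb9 and Psmb10 the log2 differences were -0.27, -0.24 and -0.22. Intervals within a 2-fold difference were reached by 2 of the 3, by 19 of the 46 genes and by 2287 of all 9213. The test of Psma2, which was apart in control but not in LTβRΔN neutrophils, gave 0.41 (-0.10 to 0.93), so a difference between the genotypes was not shown.

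The libraries differed in how far the proteasome genes lay from their group means. The SD of these deviations (log2 scale) was 0.208 to 0.357 in unstimulated and 0.387 to 0.719 in stimulated libraries, and over all tested genes 0.415 to 0.531 and 0.587 to 0.828. Replicates 4 and 3 of stimulated LTβRΔN neutrophils held the lowest of the 16 values for 9 and 8 of the 46 genes. Every stimulated library thus had a wider spread than every unstimulated one, and the same held over all tested genes. Among unstimulated libraries the widest spread (0.357) was that of the shallowest library. Whether depth bears on the spread was not tested.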

How the data were processed

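Blood neutrophil RNA was sequenced single-end, and the deposited table holds the authors' unnormalized counts per gene symbol for 16 libraries, all whole numbers. The submitters' processing notes name TopHat 1.4.1, Bowtie 1.0.0, HTSeq 0.7.1 and mm10. The annotation and strand setting are not given in the sources used here. Groups were taken from the genotype and treatment labels, and replicate numbers in accession order pair nothing. Depth was 1094335 to 11932653 counts per library, and every pair of libraries in a group differed by more than sampling noise (chi-square per degree of freedom 6.82 or more).

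The proteasome genes and the gene lists were chosen with earlier results of these data known. Genes were kept by filterByExpr of edgeR 4.0.16 (R 4.3.3; minimum count 10, minimum total 15). All 16 libraries entered 1 quasi-likelihood fit with a coefficient per group and TMM factors, and Benjamini-Hochberg adjustment was made over 9213 genes, with 0.05 as the threshold. Standard errors are the log2 fold change over the root of F, and 95% intervals use the fit's degrees of freedom. CPM are counts per 1000000 of the TMM-scaled library total. Lengths are those of GENCODE M21 principal transcripts on GRCm38, matched by symbol, with all exons as the alternative. Upstream sequences are those of RefSeq.

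Genes named are the catalytic, immunoproteasome, activator and inhibitor genes, any that passed the test, the highest and lowest of each class with at least 3 tested genes, the 3 smallest interaction p-values, untested members and called pathway genes. Other genes named, such as Psma7, Psmd4, Psmd7, Psmd8, Psmd11 and the 5 genes beside Psmd12, were chosen after their values were seen. The test was first tested on simulated counts. Alternatives were other scalings and filters, DESeq2 1.42.0, the library index as a covariate, a replicate block, a fit of the compared groups only, an adjusted p under 0.10 and each library left out. Leaving out 4 libraries together was chosen after seeing the data.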

Additional observations from a re-analysis of the deposited data

Results flagged for a closer look

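In groups of 4 or 5 libraries, 9 of 111 gene and group combinations (8.11%), over 37 named genes, had a highest or lowest library past Dixon's criterion, which chance passes in about 1 of 20 groups. Replicate 1 of unstimulated LTβRΔN neutrophils accounted for 3 of them. It had the lowest Irf1 (484 CPM, the others 593 to 610), the highest Nfe2l2 (463 CPM, the others 405 to 408) and the highest Psma6 (63.1 CPM, the others 52.2 to 53.4). Replicate 2 of that group had the highest Zfand2a (306 CPM, the others 209 to 224). In stimulated LTβRΔN neutrophils replicate 4 had the lowest Psmb10 (8.07 CPM, the others 19.0 to 20.9). Replicate 3 of that group was at 0 CPM for Psmg3 (the others 9.87 to 13.2), and replicate 5 had the lowest Nfe2l2 (609 CPM, the others 670 to 695). In stimulated controls replicate 2 had the highest Psmd9 (17.3 CPM, the others 3.99 to 5.54) and replicate 1 the highest Psme1 (94.5 CPM, the others 73.3 to 75.0). The causes were not tested.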

How the results depend on the processing

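Between genotypes, and for the interaction, 0 proteasome genes were called under each of 26 alternatives. Scaling by library totals only called 4 in control neutrophils (Psma2, Psma7, Psmc5 and Psme3, all lower) and 1 in LTβRΔN neutrophils (Psma1, lower). It also moved the median of all genes further below 0 and called 488 and 529 of all genes, against 323 and 357. Leaving out 1 library called 0 to 1 in control neutrophils (Psmc5, without stimulated replicate 3), and 0 in the other comparisons. Without the 4 libraries that were shallow or least like their group, 0 were called in each comparison. The number in the column names is shared by 1 unstimulated and 1 stimulated library of a genotype for 7 numbers. Deviations from the group means of such pairs correlated at 0.0390 to 0.222, over 0.1 in 3 of 7. In 7 of 7 pairs each library correlated best with its own number, among libraries of its genotype under the other label. Such libraries may thus share a source, which the main fit, made without pairing, does not take into account. With these numbers as a replicate block 1 gene was called in control neutrophils (Psmc5, log2 fold change -1.41), and 0 were called for LTβRΔN neutrophils and the interaction, as without it. Genotype comparisons were not fitted with the block, since no number is shared between genotypes. With the library index as a covariate, which rests on the control libraries only, the proteasome medians were -0.16 and -0.08 and 24 and 28 of 46 genes were below 0. Of 4841 values of single genes under alternatives, 219 that did not pass the test had the other sign, as had 43 of 630 class medians, and none that passed the test turned. Intervals were widest for genes with few counts, and how far depth sets them was not tested.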
